A study of Mus musculus with 44 samples.

Results

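The genes described here are 34 members of glycolysis and of the response to low oxygen, measured in fibroblasts sorted from mouse mammary glands. They were picked by gene symbol from the 55486 genes of the count table: 7 act in glucose entry and upper glycolysis, 9 in lower glycolysis, 5 in lactate handling and its switches, and 13 are genes known to respond to hypoxia. Aldoa has a second entry of the same symbol, which held 175 counts over all libraries against 265797 for the entry used. All 34 passed the filter on low counts, as did 16601 genes in all.

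The study asked how fibroblasts of the mammary gland change as tumors grow, and whether the fibroblasts of a tumor come from those of the normal gland. Donor mammary tissue was placed in recipient mice, and normal fibroblasts (NFs) or cancer-associated fibroblasts (CAFs) were sorted by lack of EpCAM, CD49f, CD31 and CD45, then by CD26 (the surface protease Dpp4) and by GFP. Sequencing of mRNA gave 44 libraries of 5790599 to 15240328 counts, with a median of 12818100. For the tests below, libraries that share a mouse and a CD26 class were added up to 25 profiles of 13 mice.

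All recipients were En1-Cre;mTmG animals, in which cells with a history of Engrailed-1 (En1) expression, and their descendants, carry membrane GFP while the others carry membrane tomato. En1-Cre thus marks a developmental lineage, and the mark does not show that En1 was on at harvest. The control mice received mammary tissue without tumor (labelled wildtype; 3 mice). WB1P mice received tissue of the WapCre;Brca1F/F;Trp53F/F genotype (5 mice), and WB1P-Myc mice tissue that also carried a Cre-inducible Myc transgene at Col1a1 (Col1a1 invCAG-Myc-IRES-Luc; 5 mice). Wap drives Cre in milk-producing epithelium, while the floxed alleles and the transgene are in all cells of the donor tissue. The GFP mark is carried by host cells only, and whether all other sorted fibroblasts were the host's was not tested here. The glands were not cleared of their own epithelium before the transplant. Mice are numbered here 1 to 3 (control), 4 to 8 (WB1P) and 9 to 13 (WB1P-Myc), and values follow that order. CD26+ CAFs of mouse 4 were not analysed here. The CD26- profiles of mice 4, 9 and 11 and the CD26+ profiles of mice 6, 10 and 11 rest on 1 library each. The single libraries hold En1-lineage cells only, except the CD26- ones of mice 9 and 11, which hold other cells only. All other profiles join both, so profiles differ in their makeup. Each control label joins a pair of animal numbers, so a control profile may pool animals. Mice 12 and 13 carry the mark 8x8 in their labels, the tumor size in millimetres that the study calls advanced, and the other tumor labels give no size. The paper describes the tumors of this sort as end-stage, from 5 WB1P and 4 WB1P-Myc mice, whereas the labels give 5 WB1P-Myc mice. How this relates to the mark 8x8 is not stated. The age at harvest is not given in the sources used here.

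Glycolysis splits glucose into pyruvate, and fibroblasts can pass pyruvate on to mitochondria or reduce it to lactate and export it. When oxygen is low, the prolyl hydroxylases stop marking the hypoxia-inducible factors (HIFs) for breakdown, and a HIF alpha subunit with its partner Arnt switches on transporters, most glycolytic enzymes and the hypoxia genes listed here. Growth factor signals, Myc and stress pathways are known to act on many of the same genes, so an mRNA level of these genes is not a measure of oxygen.

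The HIF complex is known to bind a short core, ACGTG or GCGTG. The windows from 250 bases before to 50 bases after each RefSeq start site (build GRCm38.p6) were searched for these 5 letters on both strands. ACGTG also lies within the E-box CACGTG, which Myc and other factors bind. Windows were found for 33 of the 34 members, Ndrg1 being the one without. At least 1 window with either core was present for 29 of the 33 members (87.9%), against 65.1% of the tested genes with a window and 46.7% of all genes with one. The core ACGTG was present for 22 members (66.7%), against 28.1% of the tested genes and 21.8% of all genes. A gene with several windows has more places for a match. Counted by window, either core was in 75% of the 52 member windows, 59.2% of those of tested genes and 43.8% of all. For ACGTG these shares were 50%, 24.2% and 19.6%. A match is a run of letters and not evidence of binding. The 5 windows below belong to Egln3, Slc16a3 and Ddit4, members with large rises in CAFs, to Pgk1, as an enzyme of lower glycolysis, and to Kdm3a, the member that fell (the 1 of its 3 windows that holds a core). Each is written 5′ to 3′ on the gene's strand, with the cores in capitals (CACGT is ACGTG on the other strand), at chr12:54203825-54204124 (minus strand) for Egln3, chr11:120948817-120949116 (plus) for Slc16a3, chrX:106186850-106187149 (plus) for Pgk1, chr10:59951721-59952020 (minus) for Ddit4 and chr6:71632868-71633167 (minus) for Kdm3a.
Egln3: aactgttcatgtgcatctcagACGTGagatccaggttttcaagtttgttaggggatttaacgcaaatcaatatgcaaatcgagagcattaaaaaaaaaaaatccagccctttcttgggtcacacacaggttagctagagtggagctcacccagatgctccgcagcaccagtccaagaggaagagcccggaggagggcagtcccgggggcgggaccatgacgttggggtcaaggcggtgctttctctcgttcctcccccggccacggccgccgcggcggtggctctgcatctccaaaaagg
Slc16a3: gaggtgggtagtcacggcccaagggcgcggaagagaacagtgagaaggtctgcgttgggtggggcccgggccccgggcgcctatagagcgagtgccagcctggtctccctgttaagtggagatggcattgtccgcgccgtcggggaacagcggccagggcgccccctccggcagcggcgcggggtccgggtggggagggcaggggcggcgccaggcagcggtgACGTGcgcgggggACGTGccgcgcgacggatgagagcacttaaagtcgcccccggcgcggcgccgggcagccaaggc
Pgk1: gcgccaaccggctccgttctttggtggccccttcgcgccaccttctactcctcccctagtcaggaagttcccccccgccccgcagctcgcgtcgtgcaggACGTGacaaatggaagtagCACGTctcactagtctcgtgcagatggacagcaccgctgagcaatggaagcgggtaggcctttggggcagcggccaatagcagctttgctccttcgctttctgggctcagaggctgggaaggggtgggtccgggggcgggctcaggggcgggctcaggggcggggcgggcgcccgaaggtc
Ddit4: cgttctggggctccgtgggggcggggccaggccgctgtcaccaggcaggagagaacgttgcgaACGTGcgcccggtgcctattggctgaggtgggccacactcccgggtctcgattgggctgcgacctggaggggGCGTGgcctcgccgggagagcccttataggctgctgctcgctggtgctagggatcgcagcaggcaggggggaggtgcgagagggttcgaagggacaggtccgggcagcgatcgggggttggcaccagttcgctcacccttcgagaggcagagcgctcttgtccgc
Kdm3a: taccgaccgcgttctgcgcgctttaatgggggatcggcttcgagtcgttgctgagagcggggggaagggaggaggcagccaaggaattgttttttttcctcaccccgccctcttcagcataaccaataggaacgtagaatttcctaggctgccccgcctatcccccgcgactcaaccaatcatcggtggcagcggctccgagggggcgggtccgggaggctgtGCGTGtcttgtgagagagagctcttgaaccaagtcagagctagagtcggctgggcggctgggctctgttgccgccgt
Egln3 holds 1 core, Slc16a3 and Pgk1 hold 2 of ACGTG each, Ddit4 holds 1 of each kind, and the Kdm3a window holds a single GCGTG. These 5 windows do not stand for the whole list. Tpi1 and Gpi1, which rose in CAFs of both classes, had neither core in their windows. Eno1, Pfkl and Pdk1, which also rose in both classes, had GCGTG only. Hk2 and Pfkm, which were not called against NFs, had ACGTG.

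Between 16 and 23 of the 34 members were higher in CAFs than in NFs, depending on the tumor type and the CD26 class. In each comparison 1 member was lower. In CD26- cells, 23 of the 34 members rose and 1 fell in WB1P CAFs (median log2 fold change 1.59), against 17.6% of all tested genes that rose and 17.8% that fell (median 0.00). In CD26- WB1P-Myc CAFs, 16 members rose and 1 fell (median 0.76), against 19.1% and 17.5% of all genes (median 0.02). In CD26+ cells, 22 rose and 1 fell in WB1P (median 1.59), against 17.4% and 16.1% of all genes (median 0.00), and 21 rose and 1 fell in WB1P-Myc (median 1.17), against 17.4% and 17.3% (median -0.01). The same shares of all genes stand beside the counts by role and by gene set below. Calls are those of edgeR's quasi-likelihood test at a Benjamini-Hochberg adjusted p under 0.05 over all genes tested, and fold changes are on the log2 scale with their standard error (SE). Both tumor types of a class were compared with the same 3 control mice, so their values are set side by side and are not separate evidence. The CD26 classes come from the same mice as well, mouse 4 aside, so a change in both classes is not separate evidence either. In bulk samples, fewer cells of a type and less RNA per cell cannot be told apart.

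The mean of the 34 members' log2 levels, taken as log2(CPM + 0.5) with CPM the usual scaling of a gene's counts by the TMM-adjusted library total, was 5.21 ± 0.05 (SD, n = 3) in CD26- NFs, 6.62 ± 0.20 (n = 5) in CD26- WB1P CAFs and 5.95 ± 0.26 (n = 5) in CD26- WB1P-Myc CAFs. In CD26+ cells it was 5.04 ± 0.14 (n = 3) in NFs, 6.47 ± 0.16 (n = 4) in WB1P CAFs and 6.03 ± 0.42 (n = 5) in WB1P-Myc CAFs. No CAF profile overlapped the NFs of its class. In CD26- cells every WB1P mouse (6.42 to 6.93) lay above every WB1P-Myc mouse (5.61 to 6.29). In CD26+ cells the WB1P-Myc mice spread from 5.62 to 6.55, with mice 9 and 12 (6.41 and 6.55) among the WB1P mice (6.34 to 6.70) and mice 10, 11 and 13 (5.70, 5.88 and 5.62) below them. These means are descriptions and were not tested.

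**Figure D1:**
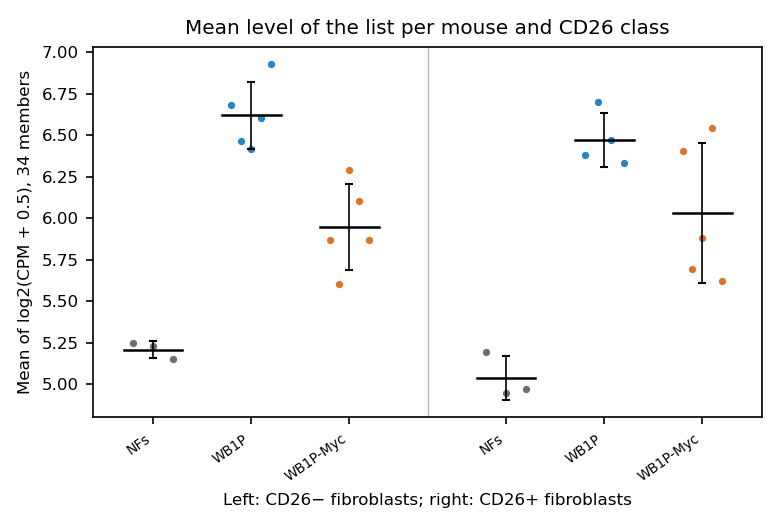
Mean log2(CPM + 0.5) of the 34 members in each mouse (points), by CD26 class and transplant, with the group mean and SD (bars). All CAF points lie above the NFs of their class, and the CD26+ WB1P-Myc mice spread from 5.62 to 6.55.

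The cells sorted as fibroblasts carried the fibroblast markers in every group, with summed levels of 8 markers of 20188 to 57380 CPM, of which Col1a1 and Col1a2 made up the larger part. In CD26- CAFs 3 of the 8 were higher and 3 lower than in NFs in WB1P, and 3 were lower in WB1P-Myc. Among the CD26- profiles, NFs had 1443 to 1467 CPM of Pdgfra and WB1P CAFs 154 to 627 CPM. For Dcn these ranges were 3870.0 to 5971 and 459 to 1749 CPM. In CD26+ cells 3 were higher and 1 lower in WB1P, and 3 higher and 0 lower in WB1P-Myc CAFs. The 6 epithelial markers summed in CD26- cells to 21.4 to 52.8 CPM in NFs, 49.1 to 168 CPM in WB1P and 16.4 to 109.7 CPM in WB1P-Myc CAFs. In CD26+ cells they summed to 11.6 to 28.8 CPM in NFs, 17.3 to 127 CPM in WB1P and 0.364 to 60.1 CPM in WB1P-Myc CAFs. None of them was called in any comparison of CAFs with NFs or of the tumor types. In CD26- cells the 6 pericyte markers summed to 203 to 369.9 CPM in NFs, 1822 to 5285 CPM in WB1P CAFs and 2353 to 9067 CPM in WB1P-Myc CAFs, and 6 of 6 rose in both. In CD26+ cells they summed to 167 to 189 CPM in NFs, 169 to 393 CPM in WB1P and 155 to 310.1 CPM in WB1P-Myc CAFs, with 2 of 6 higher and 1 lower in each. All 6 proliferation markers rose in each of the 4 comparisons of CAFs with NFs, with sums in CD26- cells of 6.06 to 51.3 CPM in NFs and 159.9 to 379 CPM in WB1P CAFs. In CD26+ cells the immune markers summed to 18.2 to 31.3 CPM in NFs, 60.2 to 145 CPM in WB1P CAFs and 94.5, 21.6, 57.7, 249.7 and 30.5 CPM in the WB1P-Myc CAFs of mice 9 to 13. In each tumor type 2 of 6 were higher and 1 lower. The highest 2 of the CD26+ WB1P-Myc sums were those of mice 9 and 12, the mice with the highest means of the 34 members in that group. The CD26+ WB1P CAFs did not show this order. There mouse 5 had the highest immune sum (145 CPM) and a mean of 6.38, and mouse 6 had the highest mean (6.70) and a sum of 74.0 CPM. Endothelial markers summed to at most 70.7 CPM in any profile, with 1 to 3 of 5 lower in each of the 4 comparisons and 1 higher in CD26- CAFs of both tumor types. The 6 skeletal muscle markers summed in CD26- cells to 62.0 to 302 CPM in NFs, 1.01 to 79.5 CPM in WB1P and 2.15 to 10.5 CPM in WB1P-Myc CAFs. All 6 were lower in CD26- WB1P-Myc CAFs, and 1 of 6 was in each of the other 3 comparisons. The 5 adipocyte markers summed in CD26- cells to 8.12 to 31.6 CPM in NFs and 1.47 to 8.18 CPM in WB1P CAFs, with 1 to 3 lower in each comparison. The 5 erythroid markers summed to at most 3.98 CPM, and both of the 2 tested were lower in 3 of the 4 comparisons. Of all these markers, 2 adipocyte markers in CD26+ WB1P CAFs, 1 adipocyte and 1 skeletal muscle marker in CD26+ WB1P-Myc CAFs, and 1 erythroid marker in every group but CD26- NFs were at 0 in all mice. The 13 genes of the response to tissue dissociation summed to 6957 to 24785 CPM over all profiles, with 0 higher in CAFs and 4, 2, 1 and 1 lower in CD26- WB1P, CD26- WB1P-Myc, CD26+ WB1P and CD26+ WB1P-Myc CAFs. The part of these other cells and of dividing cells in the results below was not tested.

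In glucose entry and upper glycolysis, 4 of 7 members rose in CD26- WB1P CAFs, 3 in CD26- WB1P-Myc, 3 in CD26+ WB1P and 3 in CD26+ WB1P-Myc CAFs. Slc2a1 (ENSMUSG00000028645, chromosome 4, 119108711 to 119137983), the glucose transporter GLUT1, stood at 70.0, 89.8 and 57.1 CPM in CD26- NFs, at 352, 338, 324, 323 and 389.9 CPM in WB1P and at 106, 98.2, 211, 168 and 141 CPM in WB1P-Myc CAFs. In CD26+ cells its levels were 84.1, 57.7 and 52.9 CPM in NFs, 363, 274, 216 and 201 CPM in WB1P and 208, 102, 239.7, 203 and 119 CPM in WB1P-Myc CAFs. All CAFs lay above all NFs of their class, and mouse 10 came closest to the NFs in both classes. The log2 fold change of Slc2a1 was 2.26 (SE 0.30, adjusted p = 7.88e-06) in CD26- WB1P and 1.00 (SE 0.28, adjusted p = 0.00905) in CD26- WB1P-Myc, and the second of these calls was lost without control mouse 3 (adjusted p = 0.0597). In CD26+ cells it was 2.02 (SE 0.31, adjusted p = 6.91e-05) and 1.42 (SE 0.29, adjusted p = 0.00101).

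Pfkl (ENSMUSG00000020277, chromosome 10, 77986947 to 78010083), the liver-type subunit of phosphofructokinase, the enzyme of the committed step, had 29.4, 17.3 and 32.2 CPM in CD26- NFs, 126, 71.4, 112, 103 and 161 CPM in WB1P and 73.2, 60.8, 74.4, 95.1 and 49.4 CPM in WB1P-Myc CAFs. CD26+ NFs had 22.4, 8.72 and 18.7 CPM, CD26+ WB1P CAFs 65.3, 120.2, 92.1 and 81.2 CPM and CD26+ WB1P-Myc CAFs 91.2, 65.6, 34.3, 114 and 45.6 CPM. No CAF value reached down to the NFs of its class. Its log2 fold change was 2.12 (SE 0.38, adjusted p = 0.000183) in WB1P and 1.42 (SE 0.37, adjusted p = 0.00473) in WB1P-Myc in the CD26- class, and 2.43 (SE 0.40, adjusted p = 0.000143) and 2.08 (SE 0.38, adjusted p = 0.000422) in the CD26+ class. The platelet and muscle subunits did not pass the test: Pfkp had 125 ± 18.1 CPM in CD26- NFs and 133 ± 26.9 in CD26- WB1P CAFs (adjusted p = 0.758), and Pfkm had 31.4 ± 1.73 and 26.5 ± 4.66 CPM (adjusted p = 0.191).

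Gpi1, which turns glucose 6-phosphate into fructose 6-phosphate, rose by smaller amounts in 3 of the 4 comparisons, with log2 fold changes of 0.77 in CD26- WB1P, 0.84 in CD26+ WB1P and 0.62 in CD26+ WB1P-Myc CAFs. Hk1, the hexokinase of most tissues, rose in CD26- CAFs of WB1P (0.84) and WB1P-Myc (0.54). Hk2, the inducible hexokinase, did not pass the test against NFs in either class or tumor type. Its levels were 353 to 585 CPM in CD26- NFs against 425 to 710.3 CPM in WB1P and 167 to 577 CPM in WB1P-Myc CAFs, and 2 of the WB1P-Myc mice, 9 and 10, lay below the NFs.

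Because the enzymes of these steps come as several genes, their levels were divided by the length of their exons in kilobases (kb), which allows genes to be set against each other within a sample. Of the 3 phosphofructokinase genes, Pfkl made up 17.4% ± 5.39 (SD, n = 3) of the summed CPM per kb in CD26- NFs, 48.3% ± 5.54 (n = 5) in WB1P and 37.9% ± 6.80 (n = 5) in WB1P-Myc CAFs. In CD26+ cells its share was 10.9% ± 4.69 (n = 3), 40.5% ± 6.48 (n = 4) and 35.0% ± 9.49 (n = 5). Eno1 made up 46.3% ± 4.14 of the enolase level per kb in CD26- NFs, 82.3% ± 3.74 in WB1P and 82.3% ± 3.64 in WB1P-Myc CAFs, the remainder being Eno2, the neuronal enolase. In CD26+ cells the Eno1 share was 56.7% ± 6.55, 86.3% ± 6.42 and 85.1% ± 4.03. For both genes the shares in CAFs did not overlap those in NFs of the same class: the highest NF share of Pfkl was 21.4% in CD26- and 14.9% in CD26+ cells, and the lowest CAF shares were 30.5% and 22.0%. Eno1 thus led already in CD26+ NFs. In CD26- NFs Eno2 had the larger mean share, but the Eno1 share ran from 42.3% to 50.6%. By CPM without the length, the means in CD26- NFs were close, at 80.2 for Eno1 and 81.7 for Eno2. Hexokinase and aldolase kept their leading gene. Hk2 held 90.5% ± 2.59 of the hexokinase level per kb in CD26- NFs and 86.5% ± 3.90 in CD26- WB1P CAFs, and Aldoa held a mean of over 99% of the aldolase level in every group. Lengths are the union of all annotated exons, which can differ from the transcripts made in these cells, and these shares were not tested. By CPM without the length, the mean of Pfkp was above that of Pfkl in every group, with 133 against 115 in CD26- WB1P CAFs. Pfkp overlaps Pitrm1, whose counts were 74.2% of its own, and Pfkm overlaps Senp1, whose counts were 122% of its own. Senp1 had log2 fold changes of -0.36 and -0.20 in CD26- and -0.31 and -0.30 in CD26+ CAFs of WB1P and WB1P-Myc.

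**Figure D2:**
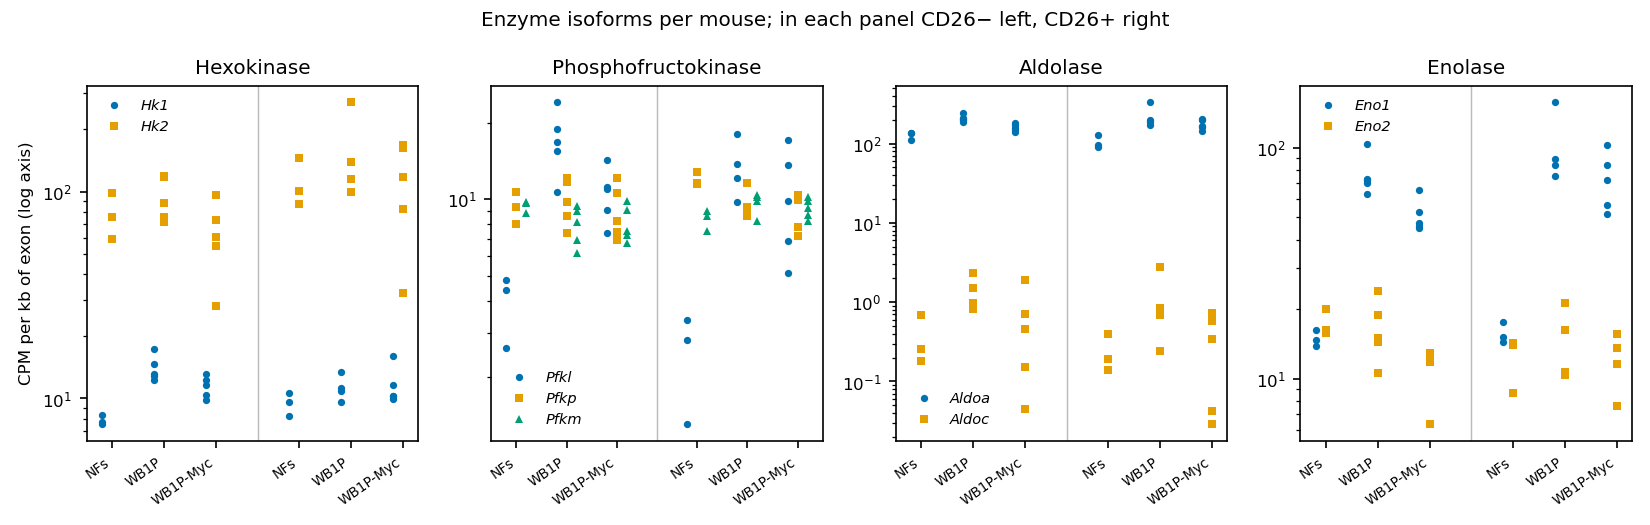
Levels of the hexokinase, phosphofructokinase, aldolase and enolase genes in CPM per kb of exon by group, which may be set against each other within a family. Pfkl and Eno1 take larger shares of their families in CAFs than in NFs, while Hk2 and Aldoa lead in all groups.

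In lower glycolysis, 7 of 9 members rose in CD26- WB1P CAFs, 6 in CD26- WB1P-Myc, 7 in CD26+ WB1P and 7 in CD26+ WB1P-Myc CAFs, and Aldoc and Eno2 were not called in any of them. Tpi1 (ENSMUSG00000023456, chromosome 6, 124810586 to 124814296), which interconverts the 2 triose phosphates, had 65.6, 97.3 and 65.4 CPM in CD26- NFs, 252, 216, 239, 265 and 343 CPM in WB1P and 171, 146, 186, 199 and 178 CPM in WB1P-Myc CAFs. The CD26+ values were 63.6, 72.8 and 63.3 CPM in NFs, 211, 403, 266 and 230.3 CPM in WB1P and 249, 182, 155, 314 and 147 CPM in WB1P-Myc CAFs. Tpi1 was above the NFs in every CAF profile, with log2 fold changes of 1.79 (SE 0.25, adjusted p = 1.26e-05) and 1.21 (SE 0.24, adjusted p = 0.000666) in CD26- and 2.06 (SE 0.26, adjusted p = 9.75e-06) and 1.66 (SE 0.25, adjusted p = 6.32e-05) in CD26+ cells, WB1P first. Gapdh, the next enzyme and a common reference gene, rose by 1.89 (SE 0.22) and 1.42 (SE 0.22) in CD26- and by 1.99 (SE 0.23) and 1.55 (SE 0.22) in CD26+ CAFs, and its 3 annotated copies held 0.711% as many counts as the gene. Its range was 94.4 to 104 CPM in CD26- NFs and 330.0 to 429.6 CPM in CD26- WB1P CAFs, with no overlap.

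Pgk1 (ENSMUSG00000062070, chromosome X, 106187100 to 106203699), which makes the first ATP of the pathway, had 63.8, 45.8 and 49.5 CPM in CD26- NFs, 253, 210.3, 239.7, 242 and 340.3 CPM in WB1P and 137, 119.8, 193, 157 and 152 CPM in WB1P-Myc CAFs. CD26+ NFs had 64.5, 39.4 and 45.6 CPM, CD26+ WB1P CAFs 196, 391, 228 and 195 CPM and CD26+ WB1P-Myc CAFs 222, 142, 117, 245 and 130.4 CPM. NFs and CAFs did not overlap, and mouse 6 was the highest of the CD26+ profiles. For Pgk1 the log2 fold change was 2.28 (SE 0.29, adjusted p = 3.53e-06) in CD26- WB1P and 1.52 (SE 0.27, adjusted p = 0.000249) in CD26- WB1P-Myc, then 2.34 (SE 0.29, adjusted p = 8.86e-06) and 1.78 (SE 0.28, adjusted p = 9.02e-05) in the CD26+ class. The CD26+ sample of mouse 6 rests on 1 library, the shallowest of the 44.

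Pgam1 (ENSMUSG00000011752, chromosome 19, 41911923 to 41918660), the phosphoglycerate mutase, had 29.5, 21.9 and 26.8 CPM in CD26- NFs, 72.8, 66.0, 73.8, 74.1 and 89.2 CPM in WB1P and 42.6, 44.9, 51.4, 56.8 and 49.4 CPM in WB1P-Myc CAFs. CD26+ NFs had 30.9, 21.2 and 24.2 CPM, CD26+ WB1P CAFs 79.2, 87.4, 77.5 and 67.2 CPM and CD26+ WB1P-Myc CAFs 68.6, 59.0, 47.3, 80.0 and 51.0 CPM. The 3 CD26- groups did not overlap each other, with WB1P-Myc between NFs and WB1P. Against NFs it rose by 1.53 (SE 0.17, adjusted p = 7.80e-07) and 0.91 (SE 0.17, adjusted p = 0.000259) in CD26- and by 1.61 (SE 0.18, adjusted p = 2.15e-06) and 1.27 (SE 0.17, adjusted p = 1.75e-05) in CD26+ CAFs of WB1P and WB1P-Myc.

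Eno1 (ENSMUSG00000063524, chromosome 4, 150236721 to 150248879), the enolase of most tissues, had 87.0, 74.7 and 78.9 CPM in CD26- NFs, 390.1, 339, 395, 376 and 557 CPM in WB1P and 242, 247, 354, 284 and 254 CPM in WB1P-Myc CAFs. CD26+ NFs had 94.9, 81.8 and 77.9 CPM, CD26+ WB1P CAFs 452, 847, 479.7 and 406 CPM and CD26+ WB1P-Myc CAFs 451, 390.5, 303, 553 and 277 CPM. Its lowest CAF value, in CD26- WB1P-Myc mouse 9, was well above the highest NF value. For Eno1 the log2 fold change was 2.36 (SE 0.26, adjusted p = 5.86e-07) and 1.78 (SE 0.25, adjusted p = 1.78e-05) in CD26- and 2.69 (SE 0.27, adjusted p = 8.31e-07) and 2.22 (SE 0.26, adjusted p = 4.18e-06) in CD26+ CAFs of WB1P and WB1P-Myc. The near-identical Eno1b held 11.2% as many counts as Eno1, and how reads that fit both were assigned is not given in the sources used here.

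Pkm (ENSMUSG00000032294, chromosome 9, 59656368 to 59679375), the pyruvate kinase of non-liver tissues, had 199, 191 and 185 CPM in CD26- NFs, 834, 814, 858, 918 and 1100.4 CPM in WB1P and 654, 534, 729, 670.0 and 660.2 CPM in WB1P-Myc CAFs. CD26+ NFs had 195, 166 and 158 CPM, CD26+ WB1P CAFs 712, 1180.1, 787 and 646 CPM and CD26+ WB1P-Myc CAFs 717, 587, 518, 837 and 586 CPM. The NF values were close together and every CAF value was above them, by log2 fold changes of 2.24 (SE 0.20, adjusted p = 5.20e-08) and 1.76 (SE 0.19, adjusted p = 9.24e-07) in CD26- and 2.27 (SE 0.20, adjusted p = 1.96e-07) and 1.91 (SE 0.19, adjusted p = 1.13e-06) in CD26+ cells. Gene counts do not separate the M1 and M2 forms of Pkm. Aldoa, which cleaves fructose bisphosphate, rose in CD26- WB1P (0.72) and in CD26+ WB1P (1.08) and WB1P-Myc (0.74) CAFs.

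**Figure D3:**
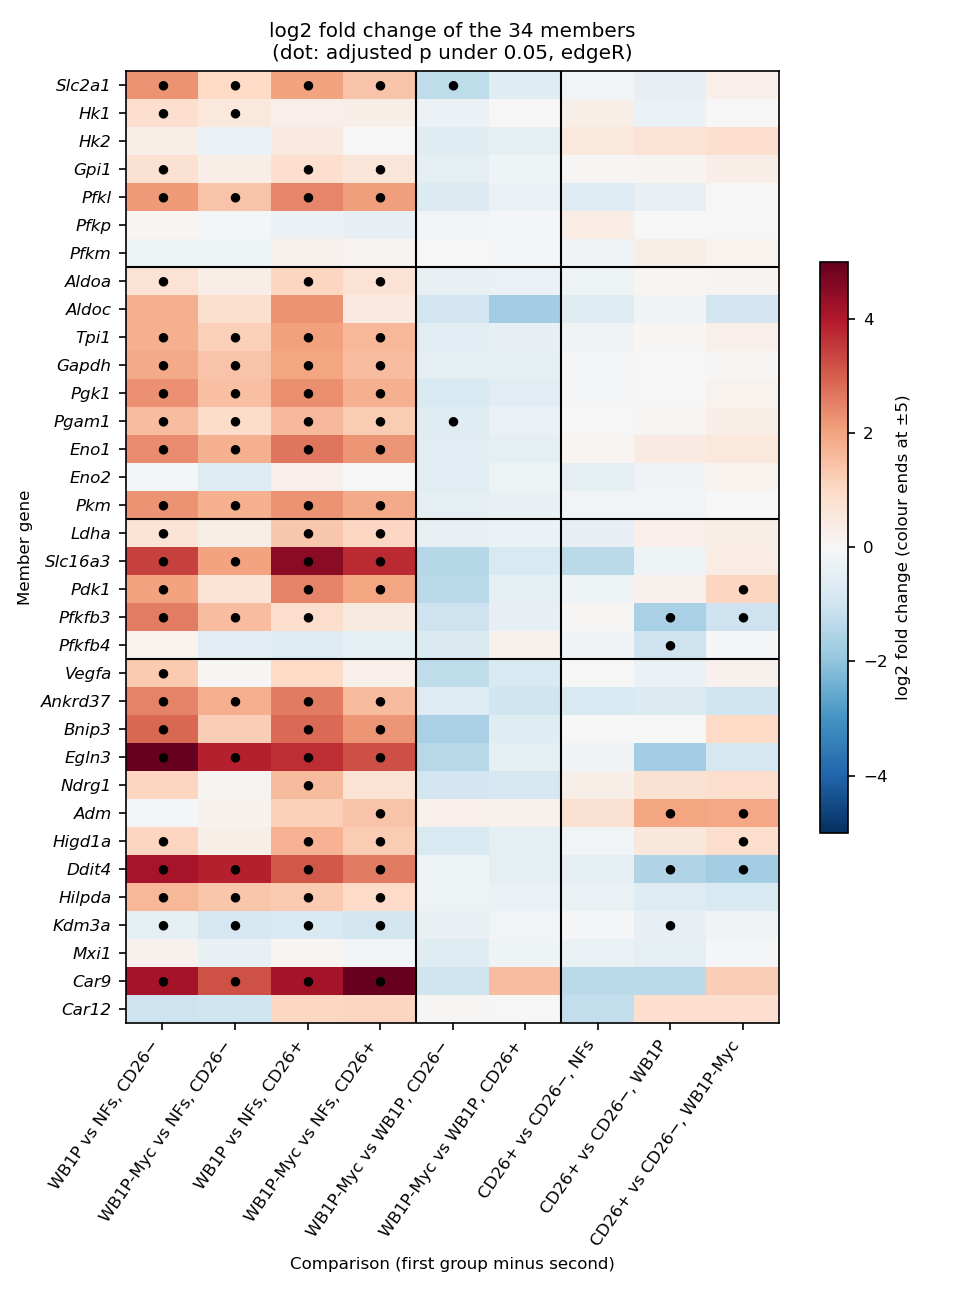
Log2 fold changes of the 34 members (lines, ordered by role) in 9 comparisons (columns), with a dot where the adjusted p was under 0.05. Red fills the first 4 columns, CAFs against NFs, for most members, while Kdm3a is the one that fell in all of them.

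In lactate handling and its switches, 4 of 5 members rose in CD26- WB1P CAFs, 2 in CD26- WB1P-Myc, 4 in CD26+ WB1P and 3 in CD26+ WB1P-Myc CAFs. Slc16a3 (ENSMUSG00000025161, chromosome 11, 120948480 to 120960868), the lactate exporter MCT4, had 25.0, 14.6 and 16.0 CPM in CD26- NFs, 232, 136, 180.0, 174 and 274 CPM in WB1P and 61.8, 56.2, 113, 97.4 and 43.0 CPM in WB1P-Myc CAFs. CD26+ NFs had 12.9, 3.81 and 5.22 CPM, CD26+ WB1P CAFs 138, 242, 153 and 131 CPM and CD26+ WB1P-Myc CAFs 152, 71.1, 37.9, 187 and 36.6 CPM. All CAFs were above all NFs, and the lowest were mice 11 and 13 in CD26+ and mouse 13 in CD26- cells. For Slc16a3 the log2 fold change was 3.43 (SE 0.55, adjusted p = 6.22e-05) and 2.01 (SE 0.51, adjusted p = 0.00442) in CD26- and 4.51 (SE 0.60, adjusted p = 1.62e-05) and 3.73 (SE 0.57, adjusted p = 6.92e-05) in CD26+ CAFs of WB1P and WB1P-Myc. Slc16a3 overlaps Csnk1d, whose counts were 228% of its own, and Csnk1d moved the other way, with log2 fold changes of -0.51, -0.68, -0.51 and -0.73 in the same order. Ldha, which reduces pyruvate to lactate, rose by 0.67 (SE 0.21) in CD26- WB1P, 1.35 (SE 0.23) in CD26+ WB1P and 1.05 (SE 0.22) in CD26+ WB1P-Myc CAFs, the first of these calls being lost without control mouse 3 (adjusted p = 0.0784) and also with only the En1-lineage libraries (adjusted p = 0.0529).

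Pdk1 (ENSMUSG00000006494, chromosome 2, 71873224 to 71903858), the kinase that turns pyruvate dehydrogenase off, had 9.06, 9.17 and 10.3 CPM in CD26- NFs, 46.4, 26.6, 30.5, 39.1 and 51.2 CPM in WB1P and 17.98, 12.97, 18.5, 15.3 and 12.3 CPM in WB1P-Myc CAFs. CD26+ NFs had 7.09, 8.04 and 9.27 CPM, CD26+ WB1P CAFs 41.2, 48.0, 46.7 and 44.6 CPM and CD26+ WB1P-Myc CAFs 50.3, 23.8, 11.8, 59.3 and 14.8 CPM. It rose in WB1P CAFs of both classes, by 2.03 (SE 0.39, adjusted p = 0.000368) in CD26- and 2.47 (SE 0.41, adjusted p = 0.000156) in CD26+ cells, and in CD26+ WB1P-Myc CAFs by 1.98 (SE 0.39, adjusted p = 0.000768). In CD26- WB1P-Myc CAFs the values lay above the NFs but the test was not passed, with a log2 difference of 0.69 (SE 0.37, adjusted p = 0.142). It passed with only the groups compared in the fit (adjusted p = 0.0181).

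Pfkfb3 (ENSMUSG00000026773, chromosome 2, 11471433 to 11554077), which makes the fructose 2,6-bisphosphate that activates phosphofructokinase, had 23.0, 28.6 and 26.9 CPM in CD26- NFs, 197, 119.9, 114, 184 and 156 CPM in WB1P and 115, 39.5, 109, 59.2 and 58.1 CPM in WB1P-Myc CAFs. CD26+ NFs had 26.3, 27.3 and 28.1 CPM, CD26+ WB1P CAFs 64.7, 29.5, 48.8 and 53.9 CPM and CD26+ WB1P-Myc CAFs 39.0, 26.7, 47.5, 31.6 and 41.3 CPM. CD26- CAFs of both tumor types were above all NFs, whereas the CD26+ WB1P-Myc mice overlapped them. For Pfkfb3 the log2 fold change was 2.56 (SE 0.32, adjusted p = 3.72e-06) in CD26- WB1P and 1.54 (SE 0.31, adjusted p = 0.000593) in CD26- WB1P-Myc CAFs. In CD26+ WB1P CAFs it was 0.86 (SE 0.31, adjusted p = 0.0351), and this call was lost without control mouse 1, 2 or 3 or WB1P mouse 5, 7 or 8 (adjusted p = 0.0596 to 0.0969). Its relative Pfkfb4 did not pass the test against NFs, with 32.6 ± 9.24 CPM in CD26- NFs and 37.2 ± 11.0 CPM in CD26- WB1P CAFs (adjusted p = 0.566). In the other comparisons its mean was lower in CAFs. It was 22.2 CPM in CD26- WB1P-Myc CAFs, and 28.5 in CD26+ NFs against 18.4 in WB1P and 21.2 in WB1P-Myc CAFs. The CD26+ WB1P CAFs (12.5 to 25.5 CPM) did not overlap the NFs (25.7 to 33.7 CPM).

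Of the 13 hypoxia response members, 8 rose in CD26- WB1P, 5 in CD26- WB1P-Myc, 8 in CD26+ WB1P and 8 in CD26+ WB1P-Myc CAFs, and 1, Kdm3a, fell in each of the 4. Ddit4 (ENSMUSG00000020108, chromosome 10, 59949669 to 59951834), a stress-induced inhibitor of mTORC1, had 16.8, 17.5 and 15.5 CPM in CD26- NFs, 413, 246, 216, 229 and 352 CPM in WB1P and 346, 147, 263, 301 and 188 CPM in WB1P-Myc CAFs. CD26+ NFs had 17.8, 11.2 and 7.63 CPM, CD26+ WB1P CAFs 93.7, 76.9, 124 and 121 CPM and CD26+ WB1P-Myc CAFs 70.3, 80.0, 69.6, 53.2 and 98.2 CPM. The lowest CAF value was 53.2 CPM and the highest NF value 17.8 CPM, and each CD26+ CAF value was below every CD26- CAF value. For Ddit4 the log2 fold change was 4.13 (SE 0.35, adjusted p = 2.49e-08) and 3.90 (SE 0.34, adjusted p = 9.62e-08) in CD26- and 3.09 (SE 0.33, adjusted p = 2.11e-06) and 2.60 (SE 0.32, adjusted p = 7.73e-06) in CD26+ CAFs of WB1P and WB1P-Myc. Ddit4 is also induced by glucocorticoids and other stresses.

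Egln3 (ENSMUSG00000035105, chromosome 12, 54178981 to 54203860), a prolyl hydroxylase that is itself induced by HIF, had the largest fold change of the members in the plot of single members by mouse. Its levels were 0.833, 0.877 and 1.23 CPM in CD26- NFs, 67.2, 16.1, 22.7, 28.0 and 53.2 CPM in WB1P and 8.43, 7.23, 31.3, 17.99 and 7.17 CPM in WB1P-Myc CAFs. CD26+ NFs had 0.990, 0.642 and 0.966 CPM, CD26+ WB1P CAFs 8.62, 15.6, 10.8 and 10.0 CPM and CD26+ WB1P-Myc CAFs 12.0, 1.91, 4.46, 21.0 and 0.864 CPM. In the CD26+ WB1P-Myc group mouse 13 lay within the NFs and mouse 12 far above them, while the other 3 CAF groups did not overlap NFs. For Egln3 the log2 fold change was 5.24 (SE 0.89, adjusted p = 0.000103) and 3.87 (SE 0.84, adjusted p = 0.00122) in CD26- and 3.67 (SE 0.85, adjusted p = 0.00268) and 3.22 (SE 0.82, adjusted p = 0.00508) in CD26+ CAFs of WB1P and WB1P-Myc.

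Bnip3 (ENSMUSG00000078566, chromosome 7, 138890836 to 138909519), a mitochondrial protein of mitophagy, had 7.43, 16.0 and 10.5 CPM in CD26- NFs, 86.5, 50.8, 68.2, 84.6 and 123 CPM in WB1P and 17.3, 28.1, 37.3, 28.4 and 22.7 CPM in WB1P-Myc CAFs. CD26+ NFs had 7.13, 14.7 and 12.7 CPM, CD26+ WB1P CAFs 67.9, 122, 64.3 and 74.1 CPM and CD26+ WB1P-Myc CAFs 89.0, 28.8, 18.8, 109.7 and 21.8 CPM. WB1P CAFs were above all NFs in both classes, and the CD26+ WB1P-Myc mice divided into a high pair, 9 and 12, and 3 low ones. Bnip3 rose by 2.87 (SE 0.53, adjusted p = 0.000250) in CD26- WB1P, by 2.83 (SE 0.54, adjusted p = 0.000568) in CD26+ WB1P and by 2.22 (SE 0.51, adjusted p = 0.00249) in CD26+ WB1P-Myc CAFs, and its difference in CD26- WB1P-Myc CAFs was 1.24 (SE 0.49, adjusted p = 0.0506). The latter passed by DESeq2 (adjusted p = 0.0286) and with only the groups compared in the fit (adjusted p = 0.0166).

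**Figure D4:**
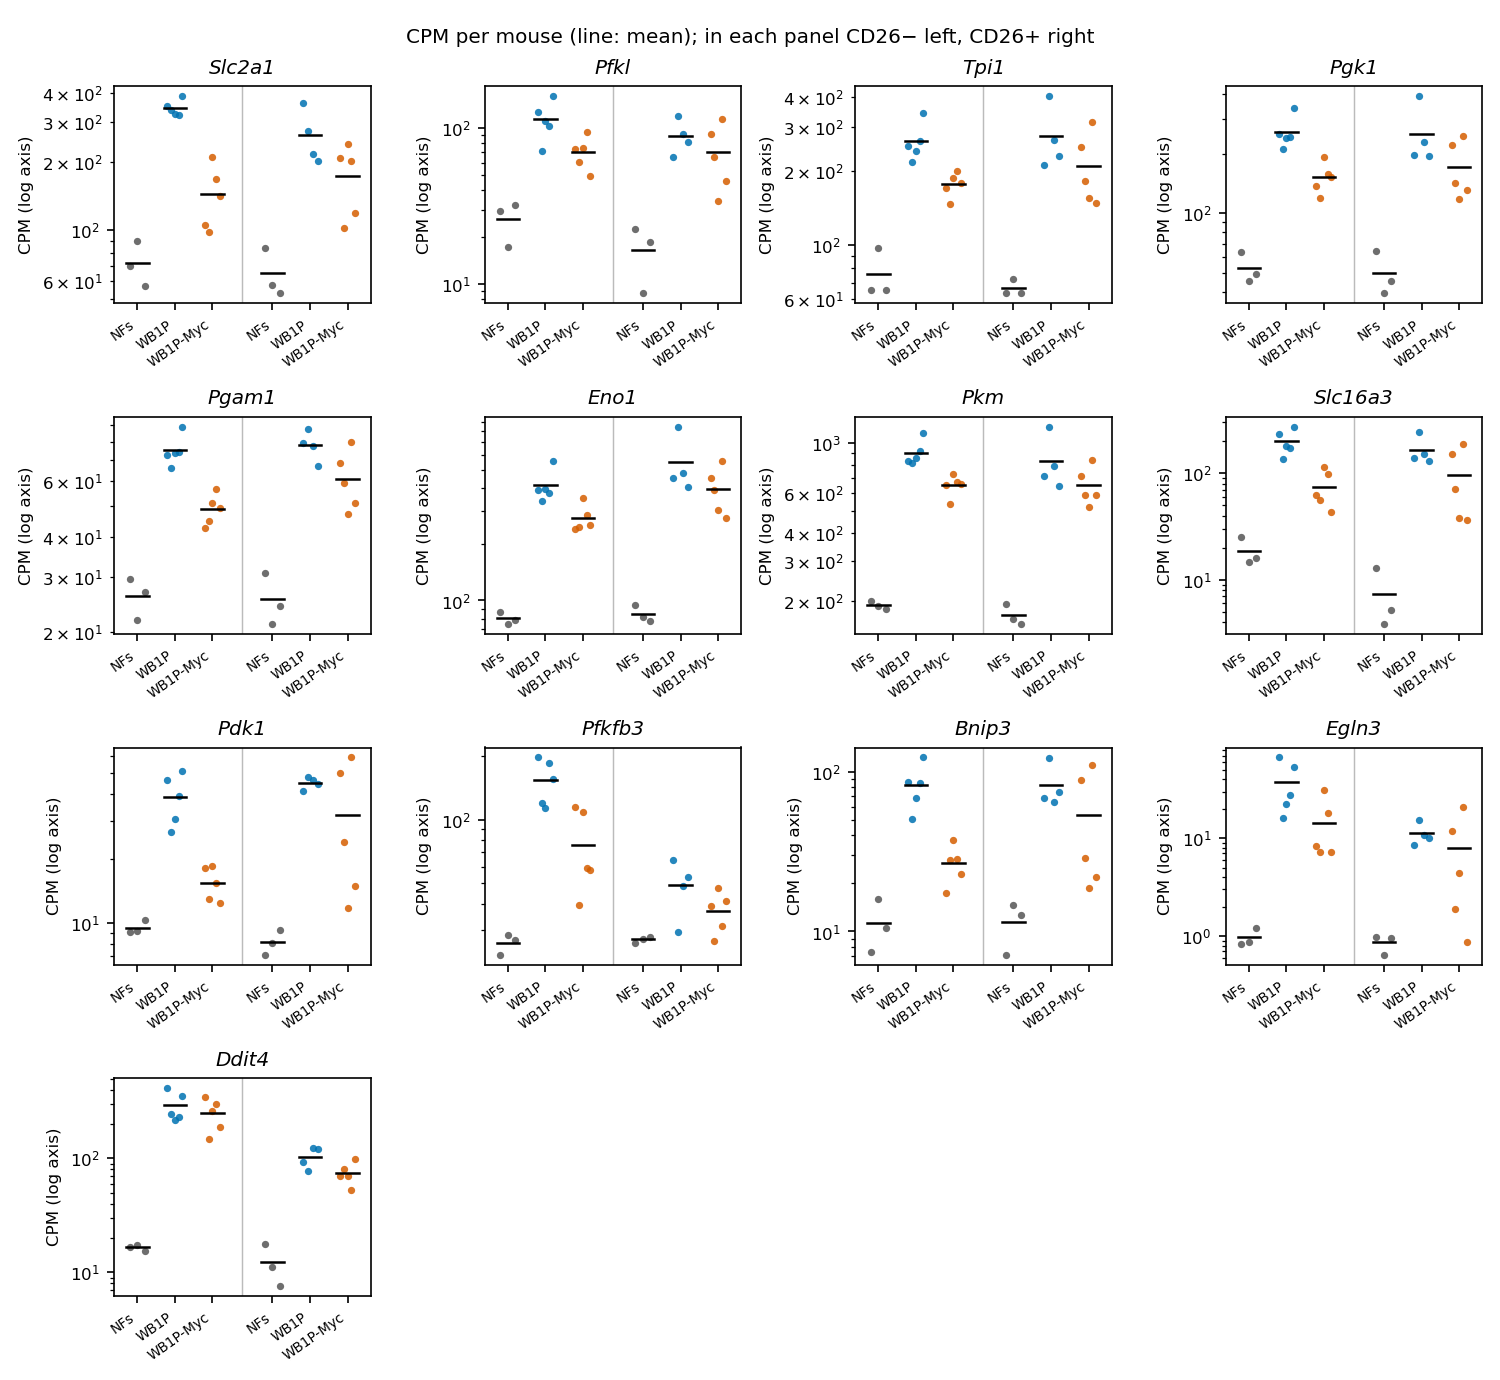
CPM of single members in each mouse (points), on log axes, by group, with a line at the group mean. For Slc16a3 and Ddit4 all CAF points lie above the NFs of their class, and in the CD26+ WB1P-Myc group mice 9 and 12 lie above the other 3 for Slc16a3 and Bnip3.

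Higd1a, a mitochondrial protein induced by low oxygen, rose by 1.06 (SE 0.26) in CD26- WB1P, 1.73 (SE 0.27) in CD26+ WB1P and 1.28 (SE 0.26) in CD26+ WB1P-Myc CAFs. Hilpda, a lipid droplet protein, rose in all 4 comparisons, by 1.64 (SE 0.38) and 1.40 (SE 0.38) in CD26- and by 1.31 (SE 0.39) and 0.96 (SE 0.37) in CD26+ CAFs. The CD26+ calls of Hilpda were lost without control mouse 2 or 3 (adjusted p = 0.0688 to 0.0785) for WB1P. For WB1P-Myc the call was lost without control mouse 2 or 3 or WB1P-Myc mouse 9, 11 or 13 (adjusted p = 0.0619 to 0.218). The latter was also lost with the size factors of DESeq2, with no low-count filter, with only the groups compared in the fit or without the mice marked 8x8 (adjusted p = 0.0550 to 0.110). Ankrd37, a small ankyrin protein, rose in all 4 at low levels, with a range of 0.688 to 1.61 CPM in CD26- NFs and of 2.73 to 7.47 CPM in CD26- WB1P CAFs. Its WB1P-Myc calls were lost without control mouse 1 or 3 (adjusted p = 0.0692 to 0.0764) in CD26- and without control mouse 1, 2 or 3 or WB1P-Myc mouse 9 (adjusted p = 0.0551 to 0.136) in CD26+ cells. Other settings that lost them were, in CD26- cells, the fit with only the En1-lineage libraries (adjusted p = 0.0569) and, in CD26+ cells, those with only the groups compared in the fit or with only the En1-lineage libraries (adjusted p = 0.0711 to 0.0918). Ankrd37 overlaps Ufsp2, which has 1154% of its counts and was itself higher in all 4, by 0.63 to 1.18.

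Vegfa, the vessel growth factor, rose in CD26- WB1P CAFs, with 260.1 ± 95.0 CPM (n = 3) in NFs and 648 ± 93.0 CPM (n = 5) in CAFs, a log2 fold change of 1.32 (SE 0.39, adjusted p = 0.0107) that was lost without control mouse 3 (adjusted p = 0.0634). In CD26- WB1P-Myc CAFs Vegfa had 269 ± 85.4 CPM and did not pass the test (adjusted p = 0.933). Ndrg1, a stress-responsive protein, rose in CD26+ WB1P CAFs by 1.57 (SE 0.60, adjusted p = 0.0490), which was lost without control mouse 1, 2 or 3 or WB1P mouse 5 or 6 (adjusted p = 0.0569 to 0.176). That call was also lost with the size factors of DESeq2, with no low-count filter or with only the groups compared in the fit (adjusted p = 0.0505 to 0.0609). Its highest value, in CD26+ cells of mouse 5, was 1604 CPM against 193 to 400.5 CPM in CD26+ NFs. Adm, the vasodilator peptide adrenomedullin, rose in CD26+ WB1P-Myc CAFs by 1.42 (SE 0.49, adjusted p = 0.0294), and this call was lost without control mouse 1, 2 or 3 or WB1P-Myc mouse 12 (adjusted p = 0.0654 to 0.0995). It was lost as well without the mice marked 8x8 (adjusted p = 0.0615). Adm had 69.2, 75.9 and 91.7 CPM in CD26+ NFs and 251, 125, 224, 329 and 127 CPM in these CAFs, which did not overlap.

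Car9, a membrane carbonic anhydrase used as a marker of hypoxia, was near the limit of detection in NFs, with 11 counts over the 3 CD26- NFs and 4 over the 3 CD26+ NFs. It passed the test as higher in all 4 comparisons, with 3.80, 1.47, 1.40, 1.89 and 3.88 CPM in CD26- WB1P, 0.222, 1.12, 2.45, 1.85 and 0.502 CPM in CD26- WB1P-Myc, 0.349, 1.81, 1.09 and 0.894 CPM in CD26+ WB1P and 2.76, 0.849, 0.756, 9.76 and 0.0455 CPM in CD26+ WB1P-Myc CAFs. Mouse 12 had 212 of the 294 Car9 counts of the CD26+ WB1P-Myc CAFs, and mouse 13 had 1. Car9 overlaps the antisense gene Gm12454, whose counts were 39.1% of its own and which was not called in these comparisons. The Car9 call was lost without control mouse 3 (adjusted p = 0.0551) in CD26- WB1P and without control mouse 1 or 3 or WB1P-Myc mouse 11 (adjusted p = 0.0700 to 0.148) in CD26- WB1P-Myc CAFs. In CD26+ WB1P CAFs it was lost without control mouse 1, 2 or 3 or WB1P mouse 6 (adjusted p = 0.0530 to 0.0792). The CD26- WB1P-Myc call was also lost with only the En1-lineage libraries (adjusted p = 0.0846), and so was the CD26+ WB1P call (adjusted p = 0.0890). Car12, another carbonic anhydrase, and Mxi1, a Myc antagonist, did not pass the test in these comparisons. Car12 had 2.99 to 7.59 CPM in CD26+ NFs and 2.50 to 38.4 CPM in CD26+ WB1P-Myc CAFs, again with mouse 12 the highest.

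Kdm3a, a histone demethylase known as a HIF target, went down in CAFs. It had 96.9, 111 and 117 CPM in CD26- NFs, 82.2, 69.6, 78.0, 86.7 and 79.7 CPM in WB1P and 71.5, 58.3, 56.1, 61.0 and 57.3 CPM in WB1P-Myc CAFs, and 98.8, 102 and 103, then 70.5, 45.6, 66.3 and 58.1, then 62.3, 48.8, 57.8, 46.9 and 55.2 CPM in the CD26+ groups in the same order. Every CAF value was below every NF value of its class. For Kdm3a the log2 fold change was -0.45 (SE 0.13, adjusted p = 0.00759) and -0.83 (SE 0.12, adjusted p = 3.63e-05) in CD26- and -0.75 (SE 0.13, adjusted p = 0.000284) and -0.90 (SE 0.12, adjusted p = 2.68e-05) in CD26+ CAFs of WB1P and WB1P-Myc, and the first call was lost without control mouse 3 (adjusted p = 0.0716).

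WB1P-Myc CAFs were then compared directly with WB1P CAFs. In CD26- cells 0 members were higher and 2 were lower by edgeR, Slc2a1 and Pgam1, against 0.205% of all genes higher and 0.307% lower. The members' median log2 fold change was -0.59 against 0.03 for all genes, and 31 of the 34 had a negative value. Of the members 22 had an unadjusted p under 0.05, against 14.5% of all genes. DESeq2 called 0 higher and 11 lower, against 1.49% of all genes lower. The log2 difference, WB1P-Myc minus WB1P, was -1.25 (SE 0.24, adjusted p = 0.0234) for Slc2a1 and -0.62 (SE 0.14, adjusted p = 0.0466) for Pgam1, and in both genes the mice of the 2 tumor types did not overlap. The Slc2a1 call was lost without WB1P mouse 6, 7 or 8 or WB1P-Myc mouse 9 or 13 (adjusted p = 0.0521 to 0.0725). It was also lost with only the groups compared in the fit, without the mice marked 8x8 or with only the En1-lineage libraries (adjusted p = 0.0616 to 0.0687). The Pgam1 call was lost without WB1P mouse 4, 5, 6, 7 or 8 or WB1P-Myc mouse 9, 10, 11 or 13 (adjusted p = 0.0604 to 0.146). That of Pgam1 was also lost with no low-count filter, with only the groups compared in the fit, without the mice marked 8x8 or with only the En1-lineage libraries (adjusted p = 0.0616 to 0.216). Leaving out 1 mouse gave 0 to 5 members lower, the 5 being reached without WB1P-Myc mouse 12.

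Among the members that missed the threshold in this comparison, Bnip3 had a difference of -1.62 (SE 0.41, adjusted p = 0.0720), Slc16a3 of -1.42 (SE 0.41, adjusted p = 0.118), Pdk1 of -1.33 (SE 0.31, adjusted p = 0.0571) and Vegfa of -1.27 (SE 0.32, adjusted p = 0.0720). By DESeq2 these 4 passed, with adjusted p of 0.00692, 0.0272, 0.00444 and 0.00849. Ddit4 had -0.23 (SE 0.24). In CD26+ cells 0 members passed in either direction by edgeR (0 by DESeq2 and 7 at an unadjusted p under 0.05, against 3.89% of all genes), and of all genes 0.0% did. The members' median there was -0.38, against -0.01 for all genes. For Slc2a1 the CD26+ difference was -0.60 (SE 0.25, adjusted p = 1.00), and whether the tumor types differ more in one class than in the other was not tested.

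The CD26 classes were compared within each transplant. In NFs 0 members differed by edgeR (1 at an unadjusted p under 0.05, against 14.1% of all genes, and 0 by DESeq2), against 2.67% of all genes higher in CD26+ cells and 1.49% lower. With the mouse as a block Slc16a3 was lower in CD26+ NFs, with a log2 difference of -1.48 (SE 0.44, adjusted p = 0.0469). The block called 5.73% of all genes higher and 5.85% lower. In WB1P CAFs 1 member, Adm, was higher in CD26+ cells and 4 were lower, Ddit4, Kdm3a, Pfkfb3 and Pfkfb4, against 13% of all genes in each direction. In WB1P-Myc CAFs 3 were higher, Adm, Higd1a and Pdk1, and 2 lower, Ddit4 and Pfkfb3, against 9.29% and 10.7% of all genes.

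Adm had the largest log2 difference in favour of CD26+ CAFs among the 34 members, in both tumor types. In WB1P it had 13.3, 45.4, 26.0, 49.2 and 94.5 CPM in CD26- and 134, 123, 192 and 273 CPM in CD26+ CAFs, and in WB1P-Myc 34.0, 88.7, 47.9, 27.7 and 74.5 CPM in CD26- and 251, 125, 224, 329 and 127 CPM in CD26+ CAFs. The classes did not overlap in either tumor type. Adm was higher in the CD26+ cells of the same mouse in 4 of 4 WB1P and 5 of 5 WB1P-Myc mice, by 1.98 (SE 0.43, adjusted p = 0.00170) and 1.95 (SE 0.42, adjusted p = 0.00162) on the log2 scale.

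Ddit4 went the other way, with log2 differences, CD26+ minus CD26-, of -1.49 (SE 0.27, adjusted p = 0.000298) in WB1P and -1.75 (SE 0.25, adjusted p = 2.64e-05) in WB1P-Myc CAFs, and was lower in the CD26+ cells of every mouse. Pfkfb3 had differences of -1.64 (SE 0.28, adjusted p = 0.000138) and -1.03 (SE 0.25, adjusted p = 0.00492) and was again lower in every mouse. With only the En1-lineage libraries the Pfkfb3 difference in WB1P-Myc was -0.59 and the call was lost (adjusted p = 0.0931). In WB1P CAFs Pfkfb4 had a difference of -1.02 (SE 0.23, adjusted p = 0.00203) and Kdm3a of -0.39 (SE 0.12, adjusted p = 0.0160), the Kdm3a call being lost without WB1P mouse 6 or 8 (adjusted p = 0.0569 to 0.0798). In WB1P-Myc, Pdk1 was higher in CD26+ CAFs by 1.06 (SE 0.31, adjusted p = 0.0182), in 4 of 5 mice, and Higd1a by 0.86 (SE 0.21, adjusted p = 0.00573), in 5 of 5. The Pdk1 call was lost without WB1P-Myc mouse 9 or 12 (adjusted p = 0.0950 to 0.153) and that of Higd1a without WB1P-Myc mouse 9 (adjusted p = 0.0598). The Pdk1 call was also lost without the mice marked 8x8 or with only the En1-lineage libraries (adjusted p = 0.0592 to 0.148).

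**Figure D5:**
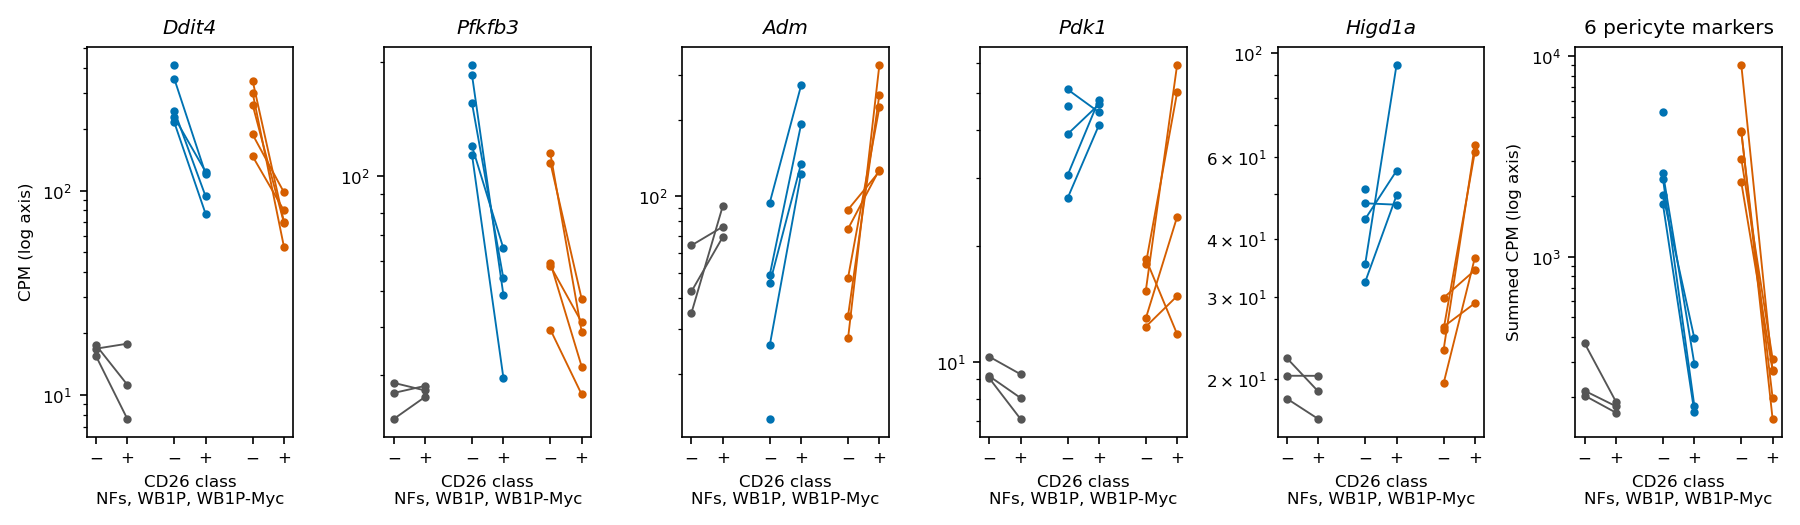
CPM of Ddit4, Pfkfb3, Adm, Pdk1 and Higd1a and the summed CPM of 6 pericyte markers in CD26- and CD26+ cells, with a line joining the classes of each mouse. In CAFs Ddit4, Pfkfb3 and the pericyte sum are lower in the CD26+ cells of every mouse, and Adm is higher in every mouse.

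The pericyte markers moved with these differences: 4 of 6 in WB1P and 6 of 6 in WB1P-Myc were lower in CD26+ CAFs, at the sums given above for each group. Their part in the results for Ddit4 and Pfkfb3 was not tested. With the mouse as a block, which uses the pairing of both classes within a mouse, 2 members were higher in CD26+ WB1P CAFs, the added one being Hk2 at 0.74 (SE 0.23, adjusted p = 0.0246). In the same fit 5 were lower, the added one being Hilpda at -0.54 (SE 0.18, adjusted p = 0.0330). Of all genes 17.3% were higher and 17.9% lower. In WB1P-Myc the block gave 5 higher, adding Hk2 at 0.74 (SE 0.21, adjusted p = 0.0159) and Ndrg1 at 0.96 (SE 0.22, adjusted p = 0.00409). It gave 4 lower, adding Hilpda at -0.73 (SE 0.16, adjusted p = 0.00389) and Ankrd37 at -1.09 (SE 0.36, adjusted p = 0.0328). Of all genes 15.2% were higher and 17% lower in this fit. Without a block, leaving out WB1P-Myc mouse 9 left 1 member higher and leaving out mouse 11 gave 5. Leaving out WB1P mouse 8 gave 2 members higher in WB1P.

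Whether the change from NFs to CAFs differed between the classes was tested as an interaction. In WB1P 1 member, Pfkfb3, had a more negative change in CD26+ cells, against 0.789% of all genes with a more positive and 1.07% with a more negative change. At an unadjusted p under 0.05 there were 6 members, against 13.5% of all genes. Pfkfb3 rose by 2.56 (SE 0.32) in CD26- and 0.86 (SE 0.31) in CD26+ cells, a difference of -1.70 (SE 0.42, adjusted p = 0.0376). That call was lost without control mouse 1, 2 or 3 or WB1P mouse 4, 6, 7 or 8 (adjusted p = 0.0610 to 0.185). With the mouse as a block it was -1.63 (SE 0.28, adjusted p = 0.00671), where 2.18% of all genes had a more positive and 2.96% a more negative change. In WB1P-Myc 0 members differed by edgeR (6 at an unadjusted p under 0.05, against 9.7% of all genes, and 0 by DESeq2), against 0.277% and 0.885% of all genes. For Ddit4 the difference was -1.04 (SE 0.41, adjusted p = 0.244) in WB1P and -1.30 (SE 0.40, adjusted p = 0.160) in WB1P-Myc.

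The second sort, by GFP, separated cells of the En1 lineage from other cells within each class. Over WB1P and WB1P-Myc with equal weight, 0 members differed between En1+ and other CD26- CAFs by edgeR (0 at an unadjusted p under 0.05, against 4.11% of all genes, and 0 by DESeq2), with 0.0% of all 15584 genes tested. In CD26+ CAFs 0 members differed as well (1 at an unadjusted p under 0.05, against 4.05% of all genes, and 0 by DESeq2), and 0.0193% of all genes did. The median log2 difference of the members, En1 lineage minus other cells, was 0.03 in CD26- and 0.17 in CD26+ CAFs, against -0.01 and 0.00 for all genes.

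The HIF subunits and oxygen sensors moved in both directions, with 3 higher and 3 lower of 9 in CD26- WB1P, 3 and 3 in CD26- WB1P-Myc, 3 and 3 in CD26+ WB1P and 3 and 3 in CD26+ WB1P-Myc CAFs. The 3 higher are 33.3% of the set, beside 17.4% to 19.1% of all genes higher and 16.1% to 17.8% lower. Hif1a, the oxygen-regulated subunit, rose by 1.44 (SE 0.29) in CD26- WB1P, 1.04 (SE 0.29) in CD26- WB1P-Myc, 1.58 (SE 0.30) in CD26+ WB1P and 1.27 (SE 0.29) in CD26+ WB1P-Myc CAFs. HIF is controlled mainly through the stability of its protein, which was not measured. The partner Arnt fell in all 4, with log2 fold changes in the same order of -0.73, -0.82, -0.66 and -0.57, while its relative Arnt2 rose by 1.95, 2.44, 3.39 and 3.65. The Arnt call in CD26+ WB1P-Myc was lost without control mouse 3 (adjusted p = 0.0739) and that in CD26+ WB1P with only the groups compared in the fit (adjusted p = 0.0783). That of Arnt2 in CD26- WB1P was lost without control mouse 3 (adjusted p = 0.0686). Egln1, the main oxygen sensor, rose by 1.11 (SE 0.22) in CD26- WB1P, 1.07 (SE 0.22) in CD26+ WB1P and 0.73 (SE 0.21) in CD26+ WB1P-Myc CAFs, and it was lower in WB1P-Myc than in WB1P CAFs of the CD26- class, with a difference of -0.80 (SE 0.18, adjusted p = 0.0466). This call was lost without WB1P mouse 4, 5, 6, 7 or 8 or WB1P-Myc mouse 9, 10, 11 or 13 (adjusted p = 0.0567 to 0.146). It was also lost with no low-count filter, without the mice marked 8x8 or with only the En1-lineage libraries (adjusted p = 0.0597 to 0.232). The Egln1 call in CD26+ WB1P-Myc CAFs was lost without control mouse 1 (adjusted p = 0.0570). Epas1, the HIF alpha subunit known from endothelium and pericytes, was lower in CD26+ than in CD26- CAFs, with differences of -2.16 (SE 0.36, adjusted p = 0.000118) in WB1P and -2.56 (SE 0.33, adjusted p = 8.35e-06) in WB1P-Myc, as the pericyte markers were.

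Of 17 other genes known as hypoxia targets, 10 rose in CD26- WB1P, 7 in CD26- WB1P-Myc, 10 in CD26+ WB1P and 8 in CD26+ WB1P-Myc CAFs, and 1 fell in CD26- WB1P-Myc CAFs. Those that rose were 58.8%, 41.2%, 58.8% and 47.1% of the set, beside 17.6%, 19.1%, 17.4% and 17.4% of all genes. Lox, which cross-links collagen, rose by 1.74 (SE 0.27) and 1.28 (SE 0.26) in CD26- and by 3.40 (SE 0.30) and 3.15 (SE 0.29) in CD26+ CAFs of WB1P and WB1P-Myc. The Lox rise was larger in CD26+ cells, by 1.66 (SE 0.36, adjusted p = 0.0176) in WB1P and 1.87 (SE 0.35, adjusted p = 0.00742) in WB1P-Myc. These calls were lost without control mouse 1, 2 or 3 or WB1P mouse 6 (adjusted p = 0.0501 to 0.0855) and without control mouse 3 (adjusted p = 0.0506), the latter also with only the En1-lineage libraries (adjusted p = 0.0927). Mif, a cytokine, rose in the same order by 1.94 (SE 0.29), 1.36 (SE 0.28), 2.70 (SE 0.31) and 2.07 (SE 0.29). Plod2, a collagen lysyl hydroxylase, rose by 0.81 (SE 0.26) in CD26- WB1P, a call lost without control mouse 2 or 3 (adjusted p = 0.0605 to 0.0926), and by 1.68 (SE 0.28) and 1.69 (SE 0.27) in CD26+ CAFs. Ero1l, an oxidase of the endoplasmic reticulum, rose by 2.08 (SE 0.34) in CD26- WB1P, 1.48 (SE 0.34) in CD26+ WB1P and 0.92 (SE 0.32) in CD26+ WB1P-Myc CAFs and was lower in WB1P-Myc than in WB1P CAFs of the CD26- class, with a difference of -1.49 (SE 0.27, adjusted p = 0.0210). This difference was lost without WB1P mouse 7 or 8 or WB1P-Myc mouse 9 or 13 (adjusted p = 0.0519 to 0.0660) and also with only the groups compared in the fit or with only the En1-lineage libraries (adjusted p = 0.0641 to 0.0946). The Ero1l call in CD26+ WB1P-Myc CAFs was lost without control mouse 2 or 3 or WB1P-Myc mouse 9 or 12 (adjusted p = 0.0661 to 0.109) and also with only the groups compared in the fit or without the mice marked 8x8 (adjusted p = 0.0892 to 0.132).

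Of 18 tested genes for other isoforms and branches, 6 rose and 3 fell in CD26- WB1P, 4 and 4 in CD26- WB1P-Myc, 6 and 4 in CD26+ WB1P and 5 and 4 in CD26+ WB1P-Myc CAFs. Those that rose were 33.3%, 22.2%, 33.3% and 27.8% of the set, beside 17.6%, 19.1%, 17.4% and 17.4% of all genes. Among all genes 17.8%, 17.5%, 16.1% and 17.3% fell. Ldhb, the lactate dehydrogenase subunit of oxidative tissues, fell in all 4, with log2 fold changes in this order of -1.91, -1.08, -2.07 and -2.14. Slc16a7, the monocarboxylate transporter MCT2, fell as well, with -3.41, -1.85, -3.09 and -2.44. The Slc16a7 call in CD26- WB1P-Myc was lost without control mouse 2 (adjusted p = 0.124) and also with only the En1-lineage libraries (adjusted p = 0.0524). That of Ldhb was lost without the mice marked 8x8 (adjusted p = 0.0601). The glucose transporter Slc2a3 rose in CD26- CAFs by 2.55 (SE 0.38) in WB1P and 1.68 (SE 0.36) in WB1P-Myc and in CD26+ WB1P CAFs by 1.25 (SE 0.37). The last call was lost without control mouse 2 or 3 (adjusted p = 0.0620 to 0.0621). It was lower in CD26+ than in CD26- cells, with differences of -1.36 in NFs, -2.66 in WB1P and -2.37 in WB1P-Myc CAFs. The NF call was lost without control mouse 1, 2 or 3 (adjusted p = 0.0585 to 0.492) and also with only the En1-lineage libraries (adjusted p = 0.0736). Pdk3, a pyruvate dehydrogenase kinase like Pdk1, rose by 0.97 and 0.59 in CD26- and by 1.11 and 1.02 in CD26+ CAFs. The CD26- WB1P-Myc call was lost without control mouse 2 (adjusted p = 0.0741) and also with only the En1-lineage libraries (adjusted p = 0.0687).

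The genes of pyruvate import, pyruvate dehydrogenase and the TCA cycle had smaller median changes than the 34 members. Of 22, 4 rose in CD26- WB1P, 10 in CD26- WB1P-Myc, 10 in CD26+ WB1P and 14 in CD26+ WB1P-Myc CAFs, while 2, 1, 0 and 1 fell, with medians of 0.12, 0.23, 0.32 and 0.34 on the log2 scale. Those that rose were 18.2%, 45.5%, 45.5% and 63.6% of the set, beside 17.6%, 19.1%, 17.4% and 17.4% of all genes. The CD26- WB1P share was thus close to that of all genes. Among all genes 17.8%, 17.5%, 16.1% and 17.3% fell. Cs, the citrate synthase, rose by 0.45 (SE 0.12) in CD26- WB1P-Myc, 0.47 (SE 0.12) in CD26+ WB1P and 0.54 (SE 0.12) in CD26+ WB1P-Myc CAFs. The CD26+ WB1P call of Cs was lost with only the groups compared in the fit (adjusted p = 0.0655). Pdha1, a subunit of the enzyme that Pdk1 turns off, rose by 0.42 and 0.50 in CD26- and by 0.25 and 0.27 in CD26+ CAFs. Its CD26+ calls were lost when any 1 of the control or WB1P mice was left out for WB1P and without control mouse 1 or 3 or WB1P-Myc mouse 9, 10 or 12 (adjusted p = 0.0579 to 0.115) for WB1P-Myc. They were also lost with the size factors of DESeq2, with no low-count filter, with only the groups compared in the fit or with only the En1-lineage libraries (adjusted p = 0.0549 to 0.228) for WB1P and with no low-count filter, with only the groups compared in the fit or without the mice marked 8x8 (adjusted p = 0.0735 to 0.125) for WB1P-Myc.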

How the data were processed

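Fibroblasts of 13 recipient mice were sorted into 44 libraries by CD26 and GFP and sequenced as stranded poly(A) mRNA by the authors. Per the labels, the submitters' processing notes name HISAT2 2.2.1 and build GRCm38. The deposited table holds raw read counts per gene, and the tool that counted, the annotation, the strand setting and the handling of reads that fit several genes are not given in the sources used here. No column of the table was unmapped to a sample.

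Counts were summed per mouse and CD26 class (25 profiles) and tested with edgeR 4.0.16 in R 4.3.3 (TMM library sizes, filterByExpr, quasi-likelihood test, no block), all 6 groups in 1 fit, with Benjamini-Hochberg adjustment over the 16601 genes tested. The study's own threshold asked also for a log2 fold change over 2, which was not used here. En1 lineage was tested on single libraries. The test was tried first on simulated counts. DESeq2 1.42.0, other scalings, no filter, subsets of the samples and the mouse as a block were tried as alternatives, and each mouse was left out in turn. Libraries of the same mouse pair the classes: the correlation of the deviations of both classes from their group means was 0.237 to 0.668 over 12 mice. Counts of 5790599 to 15240328 per library limit the low members such as Car9 by counting error.

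The values of every mouse are given for members with an adjusted p under 0.05, an absolute log2 fold change over 1 and at least 10 CPM in CAFs against NFs (the 12 largest), and for those that passed between tumor types or in the difference between classes. Values of every mouse for Adm, Car9 and Kdm3a are given as well, chosen after their values were seen. Of the genes outside the list, up to 4 per set and comparison with the smallest adjusted p may be named. Members, lists and tests were chosen with earlier results of these data known.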

Additional observations from a re-analysis of the deposited data

Results flagged for a closer look

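In groups of 4 or 5 mice, a value was singled out when its gap to the nearest other value took more of the group's range than Dixon's critical value allows. Over 13 members chosen by level and fold change and the mean of the list, 56 groups were tested and 4 values were found, where chance alone gives 2.8 (about 1 in 20 groups). Mouse 6 gave 3 of them in CD26+ WB1P CAFs, as the highest of 4: Bnip3 at 122 CPM (nearest value 74.1), Eno1 at 847 CPM (nearest 479.7) and Pgk1 at 391 CPM (nearest 228). This profile is a single library of 5790599 counts. The other was Eno1 in CD26- WB1P CAFs of mouse 8, at 557 CPM (nearest 395).

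The change from NFs to CAFs differed between CD26 classes, by edgeR's interaction test, for 1 member and 2 genes outside the list. For Pfkfb3 in WB1P the change in CD26+ cells minus that in CD26- cells was -1.70 (SE 0.42, adjusted p = 0.0376) on the log2 scale. For Lox it was 1.66 (SE 0.36, adjusted p = 0.0176) in WB1P and 1.87 (SE 0.35, adjusted p = 0.00742) in WB1P-Myc. For Slc2a4, the insulin-regulated glucose transporter, it was -3.96 (SE 0.96, adjusted p = 0.0453) in WB1P-Myc. The Slc2a4 call was lost without control mouse 1, 2 or 3 or WB1P-Myc mouse 9, 10, 11 or 12 (adjusted p = 0.0633 to 0.267) and also with only the En1-lineage libraries (adjusted p = 0.198).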

How the results depend on the processing

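Of the counts of members called, these moved by more than 1.5 times. Without the 2 WB1P-Myc mice marked 8x8, 2 members were lower in CD26- WB1P-Myc CAFs than in NFs, and with DESeq2 2 were lower in CD26+ WB1P CAFs. For WB1P-Myc against WB1P in CD26- cells, where 2 were lower, the count was 1 with no low-count filter, 11 with DESeq2, 0 with only the groups compared in the fit, 0 without the mice marked 8x8 and 1 with only the En1-lineage libraries. The last setting left 1 member lower in CD26+ than in CD26- WB1P-Myc CAFs, the call lost being that of Pfkfb3. The rise of the list's mean in CD26+ WB1P CAFs was 1.26 on the log2 scale with plain library sizes, against 1.43. The causes were not tested. With the mouse as a replicate block, which the pairing within mice allows, 1 member was lower in CD26+ NFs (none without it), 2 were higher and 5 lower in CD26+ WB1P CAFs, and 5 were higher and 4 lower in CD26+ WB1P-Myc CAFs, beside 5.73% and 5.85%, 17.3% and 17.9%, and 15.2% and 17% of all genes higher and lower. The block left the count of called members for both class differences and the En1 lineage as given.

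Leaving out each mouse in turn gave 20 to 23 members higher and 0 to 1 lower in CD26- WB1P CAFs, 13 to 17 and 1 to 2 in CD26- WB1P-Myc, 18 to 23 and 1 to 2 in CD26+ WB1P, and 18 to 21 and 1 to 1 in CD26+ WB1P-Myc CAFs. It gave 0 to 5 lower for WB1P-Myc against WB1P in CD26- cells, 1 to 2 higher and 3 to 5 lower for the classes in WB1P CAFs, 1 to 5 higher and 2 to 3 lower in WB1P-Myc CAFs, and 0 to 1 for the WB1P class difference. Of the 99 member calls, 79 held without any 1 mouse.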
